A study of Homo sapiens with 4 samples.

Results

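The genes described here are the protein-coding genes of the count table whose symbols begin with SCN and a digit, with KCN and a letter, or with CACNA, CACNB or CACNG. There are 135 of them among 20372 genes in all: 14 sodium channel genes, 26 calcium channel genes and 95 potassium channel genes. The name is broader than the label of voltage-gated channels, since 62 of the 135 encode voltage-gated pore subunits or their silent relatives, 6 encode pores opened by calcium or sodium, 30 encode inward rectifiers and tandem-pore channels, and 37 encode auxiliary subunits. RNA was sequenced from TPC1 cells, an established human papillary thyroid carcinoma line that carries the CCDC6-RET fusion, after 6 h or 24 h with the RET kinase inhibitor BLU6864. There were 2 libraries per time point. All cells were grown in DMEM with 10% serum and all received the inhibitor, and libraries from vehicle-treated cells were not analysed here, so every difference is between the later and the earlier time on drug. The labels give a dose of 100 µM and the methods 100 nM. The labels also mark both 24 h libraries, and neither 6 h library, as re-analysed. What goes with this mark cannot be told apart from time on drug. TPC1 is a single line, and nothing states that the libraries came from separate cultures, so P values measure the spread between these libraries, which may be technical.

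Voltage-gated sodium and calcium channels open when the membrane depolarizes and carry inward current, and voltage-gated potassium channels then carry potassium out and return the membrane to rest. Inward rectifiers and tandem-pore potassium channels lack the voltage sensor of these families and set the resting potential. In epithelia such as the thyroid follicle, potassium channels recycle potassium across the basolateral membrane and maintain the driving force for ion transport, and most of the remaining genes of these families are best known from neurons, muscle and heart.

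The 4 libraries held between 23917056 and 27457040 counts, so that 3 counts in a library, the upper limit that a count of 0 allows, corresponded to 0.109 to 0.125 CPM. Libraries of the same time point ranked genes with a Spearman correlation of at least 0.998, against at most 0.941 between time points. The thyroid factor PAX8 had between 19124 and 22978 counts per library, whereas 4 of 10 thyroid follicular cell markers, among them NKX2-1, TSHR and IYD, had no count. In the same list FOXE1 was higher at 24 h, with a normalized mean of 501 against 281 (log2 fold change 0.84), and TG, which encodes thyroglobulin, was lower, with 103 against 218 (-1.09). Of 10 neuron markers, 9 were in the table, and their summed normalized level was 77.9 to 85.7 at 24 h and 132 to 164 at 6 h. STMN2, a defining neuron marker, was at 0, RBFOX3 was higher at 24 h and SNAP25, SYT1 and TUBB3 were lower. The 10 muscle markers, 6 of them at 0, summed to 33.1 to 33.9 at 24 h and 164 to 169 at 6 h. This difference lay in DES, with a normalized mean of 24.1 against 156, while ACTA1 had 6.41 against 6.60. The 6 parafollicular C cell markers summed to 30.2 to 38.9 and 27.8 to 39.9, with CALCA at 0. Most of each sum was SYP, with normalized counts of 34.9 and 25.3 at 24 h and 30.2 and 22.1 at 6 h. The part of these cell type markers in the channel results was not tested. In bulk RNA, fewer cells of a type and less RNA per cell cannot be told apart.

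Most channel genes were silent or nearly so in TPC1 cells. Of the 135 genes, 33 had no count in any library, which is 24.4% against 19.8% of all genes, and 102 had at least 1 count. Only 44 had more than 3 counts in every library. After the filter on low counts 45 genes were tested, 33.3% of the channel genes against 63.2% of all genes. The 57 genes that were counted but not tested had at most 25 counts over the 4 libraries together. Among the genes without a count were KCNA1 to KCNA6, which encode Shaker-type voltage-gated channels, KCNH2, which encodes the hERG channel of cardiac repolarization, and SCN10A, a sodium channel of sensory neurons.

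**Figure D1:**
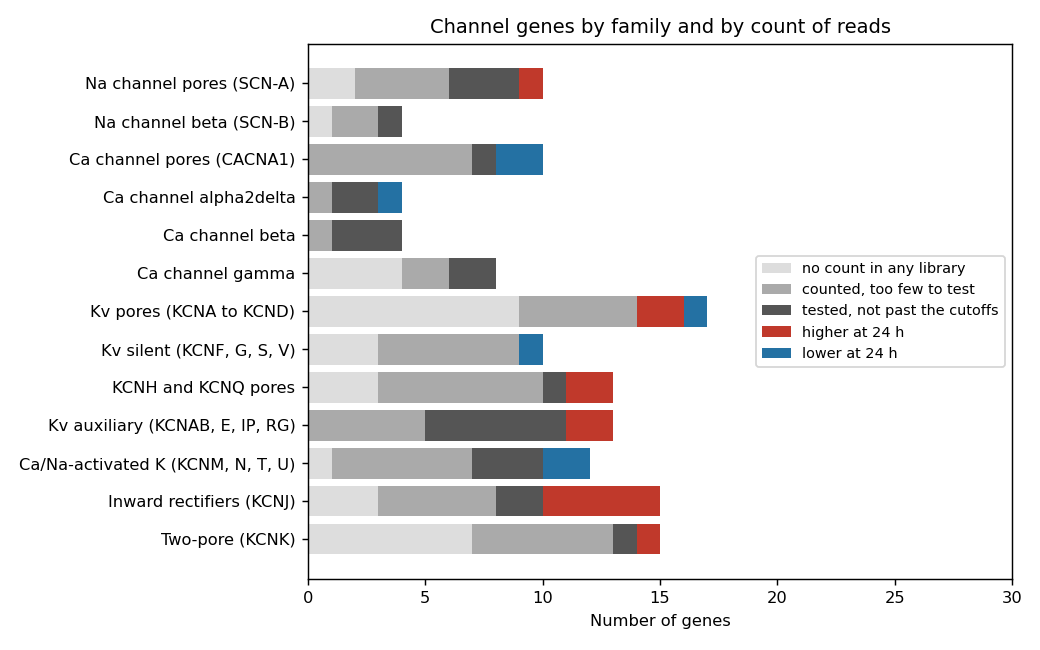
Number of channel genes in each family, divided into genes without a count, genes with too few counts to test, and tested genes by result at 24 h against 6 h. Untested genes make up most of the bars of the voltage-gated potassium pores, and the inward rectifiers hold 5 of the 13 genes that were higher at 24 h.

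Potassium channel genes known from the thyroid illustrate this sparsity. KCNQ1, the pore subunit of the basolateral potassium channel of thyrocytes, had 1 and 0 counts at 24 h and 1 and 0 counts at 6 h. Its partner KCNE2 had 3 and 3 counts at 24 h and 0 and 6 counts at 6 h. KCNE3, another partner of KCNQ1 in epithelia, had 3 and 4 counts at 24 h and 4 and 2 counts at 6 h. At this depth no difference between the time points was detectable for these genes.

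A gene was called higher or lower when its log2 fold change between 24 h and 6 h passed 0.5 in size with an unadjusted P under 0.01 in edgeR's quasi-likelihood test. The study's methods state these cutoffs for a fall with DESeq2, and they were applied here in both directions. Across all 12876 genes tested, 17.4% were called higher at 24 h and 17.7% lower. Among the 45 channel genes tested, 13 (28.9%) were higher and 7 (15.6%) were lower. With an adjusted P under 0.05 and no fold change cutoff, 16 channel genes were higher and 11 lower, beside 33.0% and 32.6% of all genes. The median log2 fold change was 0.03 over the tested channel genes and 0.0029 over all genes tested, and the former was -0.01 when libraries were scaled by size alone. KCNK2, SCN9A, KCNJ15, KCNG1 and CACNA1D had fewer than 10 counts in both libraries of one time point and entered the test through the other, so they had to differ, and these shares and the median are a description only.

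By ion, 12 of 29 tested potassium channel genes were higher (41.4%) and 4 lower (13.8%), beside 17.4% and 17.7% of all genes tested. Of 11 tested calcium channel genes 3 were lower (27.3%), and of 5 tested sodium channel genes 1 was higher (20.0%). Among auxiliary subunits 2 of 19 tested genes were higher and 2 lower (10.5% each), under the shares of all genes. The remaining genes called were pore-forming or silent pore subunits. The counts by ion include the genes that had to differ and are a description only.

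**Figure D2:**
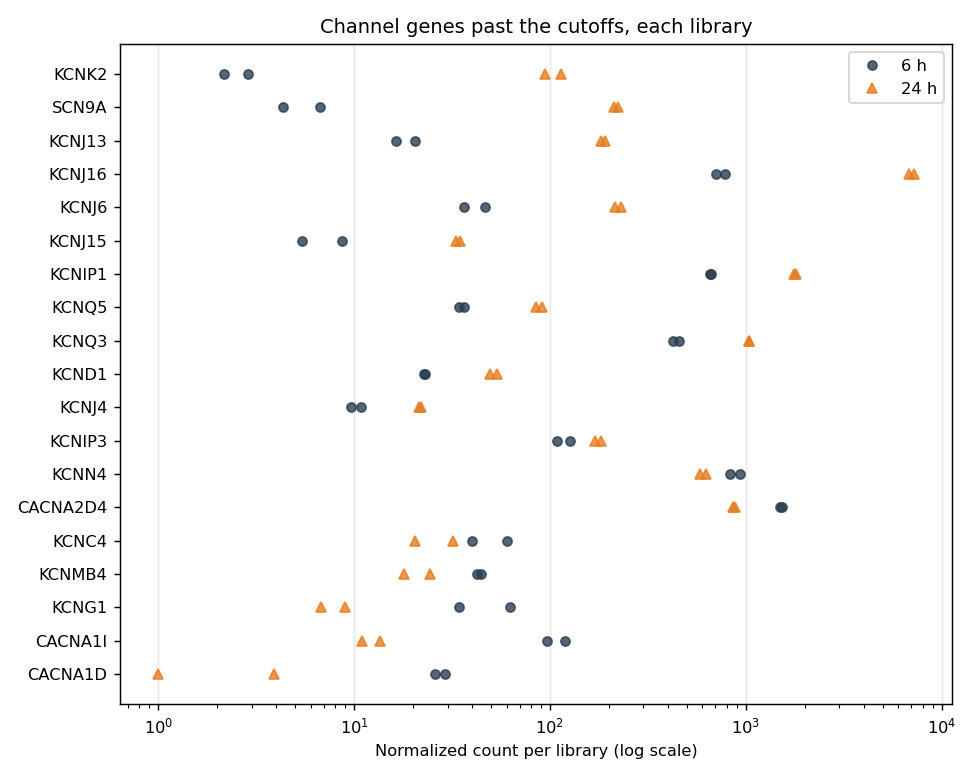
Normalized counts in each library, on a logarithmic axis, of 19 channel genes past the cutoffs, ordered by log2 fold change. The 24 h libraries lie apart from the 6 h libraries for every gene. KCNK2 and SCN9A are at the top, with the widest gaps, and CACNA1D is at the bottom.

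Inward rectifiers (KCNJ genes) pass potassium more readily into the cell than out of it and hold the membrane near the potassium equilibrium potential. Of 15 genes 12 had a count and 7 were tested. Across all genes tested 17.4% were higher at 24 h. Of these 7 inward rectifiers 5 (71.4%), KCNJ16, KCNJ13, KCNJ6, KCNJ15 and KCNJ4, were higher at 24 h. KCNJ15 entered the test through its 24 h counts and had to differ, so this share is a description only. The 250 bases before the annotated start are shown for 4 of the 5 genes. These are the 3 in which the letters of an AP-1 site were found and KCNJ13, which holds a TATA box. The sequences are from RefSeq (GRCh38.p14), 5′ to 3′ on the strand of the gene, with the motif in capitals. They were chosen after the counts were seen.
KCNJ16 (chr17:70074975-70075224, plus strand): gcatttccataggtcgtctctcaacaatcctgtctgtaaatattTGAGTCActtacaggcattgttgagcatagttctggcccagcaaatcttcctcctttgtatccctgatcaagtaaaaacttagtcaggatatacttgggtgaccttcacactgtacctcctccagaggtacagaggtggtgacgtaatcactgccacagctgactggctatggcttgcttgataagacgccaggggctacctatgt
KCNJ15 (chr21:38272258-38272507, plus strand): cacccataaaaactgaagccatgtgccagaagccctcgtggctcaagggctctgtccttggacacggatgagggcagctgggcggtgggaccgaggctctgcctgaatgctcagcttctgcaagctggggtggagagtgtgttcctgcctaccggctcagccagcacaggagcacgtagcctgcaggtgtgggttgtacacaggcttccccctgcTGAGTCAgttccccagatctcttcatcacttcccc
KCNJ4 (chr22:38444029-38444278, minus strand): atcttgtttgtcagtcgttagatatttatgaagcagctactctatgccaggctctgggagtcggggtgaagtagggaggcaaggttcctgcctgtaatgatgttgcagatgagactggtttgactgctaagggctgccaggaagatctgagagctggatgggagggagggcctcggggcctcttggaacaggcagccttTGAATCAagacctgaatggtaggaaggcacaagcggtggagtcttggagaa
KCNJ13 (chr2:232776566-232776815, minus strand): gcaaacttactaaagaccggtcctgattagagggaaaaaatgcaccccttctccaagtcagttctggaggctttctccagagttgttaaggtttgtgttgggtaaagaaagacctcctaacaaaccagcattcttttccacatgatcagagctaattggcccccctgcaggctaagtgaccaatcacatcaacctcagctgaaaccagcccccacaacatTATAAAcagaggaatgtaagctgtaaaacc

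The motifs were searched on both strands. The AP-1 letters TGANTCA began 206 bases before the start in KCNJ16, 35 bases before it in KCNJ15 and 51 bases before it in KCNJ4. They were held by 3 of the 5 called inward rectifiers. These were the only 3 to hold them among the 11 genes called higher at 24 h that had a promoter sequence. Of the 4 genes called lower that had such a sequence, 0 held them. The letters were not searched in the other called genes, which had no promoter sequence. Over all channel genes 11 of 148 promoters (7.43%) held them, close to the 6.57% of all 35116 promoters, and by gene the share was 8.06% of 27305. The TATAAA of KCNJ13 began 30 bases before the start, and 13.05% of all genes (10.72% of promoters) held these letters. A further 5 motifs were searched. Of the 5 genes, 2 held CCAAT (37.00% of all genes), KCNJ13 and KCNJ16, the latter only at starts that are not shown. KCNJ6, whose window is not shown, held the EGR letters GCGGGGGCG (5.74%). In the 5 genes, matches were not found for TGACGTCA (2.03%), CACGTG (7.73%) or an interferon-stimulated response element (3.71%). A match describes the letters of the windows searched only. KCNJ16 has 3 listed starts, of which only the one shown holds TGANTCA, and which start the reads came from was not measured.

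KCNJ16 encodes Kir5.1, a pH-sensitive subunit that forms channels with the product of KCNJ10 or KCNJ15. Its normalized counts were 7224 and 6796 at 24 h and 779 and 707 at 6 h (hg19, chr17:68049570-68131749). Both 24 h libraries lay far above both 6 h libraries, and the log2 fold change was 3.24 ± 0.0818 (SE; edgeR adjusted P = 3.21e-22). KCNJ10, its partner in kidney and glia, had 0 and 0 counts at 24 h and 1 and 1 counts at 6 h. KCNJ15, which encodes the other partner, Kir4.2, had normalized counts of 34.9 and 33.1 at 24 h and 5.40 and 8.63 at 6 h. KCNJ15 was 2.24 ± 0.385 higher on the log2 scale (adjusted P = 1.35e-05), and it entered the test through its 24 h counts.

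KCNJ13 encodes Kir7.1, a low-conductance channel of transporting epithelia that is also found in thyroid follicular cells. Its normalized counts were 190 and 182 at 24 h and 20.5 and 16.3 at 6 h, with a log2 fold change of 3.34 ± 0.211 (adjusted P = 1.63e-13). It lies within GIGYF2, whose normalized mean was 1912 at 24 h and 1504 at 6 h with a log2 fold change of 0.35. The counting program and its use of strand are not given in the sources used here, so reads of KCNJ13 and GIGYF2 may be split in part, and the part of GIGYF2 in the KCNJ13 counts was not tested.

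KCNJ6, a G protein-gated inward rectifier (GIRK2) of neurons and endocrine cells, had normalized counts of 216 and 231 at 24 h and 46.4 and 36.5 at 6 h. It was higher by 2.44 ± 0.173 on the log2 scale (adjusted P = 1.79e-12). KCNJ3 and KCNJ9, which encode some but not all of the other GIRK subunits, were not tested, KCNJ3 with no count and KCNJ9 with 1 count in all. KCNJ4, which encodes Kir2.3, was close to the cutoff, with normalized counts of 21.9 and 21.4 at 24 h and 10.8 and 9.59 at 6 h and an unadjusted P of 0.00973 (log2 fold change 1.08 ± 0.388, adjusted P = 0.0166). The call of KCNJ4 was lost in each fit without 1 of the 4 libraries, with P between 0.0370 and 0.0726.

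The remaining tested inward rectifiers did not pass the cutoffs. KCNJ1, the ROMK channel of the kidney, had normalized counts of 34.9 and 32.1 at 24 h and 20.5 and 19.2 at 6 h, and its log2 fold change of 0.75 had an unadjusted P of 0.0189. KCNJ2, the Kir2.1 channel of muscle and many other cells, had 292 and 272 at 24 h and 284 and 286 at 6 h, with a log2 fold change of -0.01 ± 0.110. The KCNJ2 libraries overlapped, although the gene lies 33.1 kb from KCNJ16 on chromosome 17 in hg19.

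Tandem-pore (KCNK) channels are background potassium channels that are open at rest and respond to stretch, lipids and pH. Of 15 genes 7 had no count and 2 were tested. KCNK2, the mechanosensitive TREK-1 channel, had 114 and 97 raw counts at 24 h and 2 and 3 raw counts at 6 h (hg19, chr1:215179118-215410436). The gene was at or under 3 counts in both 6 h libraries and entered the test through its 24 h counts. Its fitted log2 fold change of 5.29 (adjusted P = 1.41e-12) depends on the prior count. The ratio of the summed counts per library size, 211 against 5, was 40.9. The 95% interval of that ratio, 17.3 to 127, covers counting error only. KCNK3, the acid-sensitive TASK-1 channel, had normalized counts of 1649 and 1673 at 24 h and 1284 and 1389 at 6 h. It had an adjusted P of 4.54e-04, but its log2 fold change of 0.31 was under the cutoff.

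Among the 10 sodium channel pore genes 8 had a count and 4 were tested. SCN9A, which encodes the Nav1.7 channel of nociceptive and neuroendocrine cells, had normalized counts of 223 and 212 at 24 h and 4.32 and 6.72 at 6 h (hg19, chr2:167051695-167232503). The gene was near the floor at 6 h in both libraries and entered the test through its 24 h counts. Its log2 fold change was 5.25 ± 0.260 (adjusted P = 8.77e-16). SCN8A, the Nav1.6 channel of axon initial segments, had 98.6 and 111 at 24 h and 75.6 and 90.2 at 6 h and did not pass the cutoffs (0.33, adjusted P = 0.0957). SCN3A and SCN2A, which lie 35.3 kb apart on chromosome 2, had log2 fold changes of 0.63 and -0.44 and did not pass either. The other neighbours of SCN9A in this cluster were at or near the floor: SCN1A had 3 and 2 counts at 24 h and 1 and 1 at 6 h, and SCN7A had none.

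All 10 calcium channel pore genes had a count and 3 were tested, of which 2 were lower at 24 h, beside 17.7% of all genes tested. Of these 2, CACNA1D had to differ, so this share is a description only. CACNA1I, the low-voltage-activated T-type channel Cav3.3, had normalized counts of 11.0 and 13.6 at 24 h and 96.1 and 119 at 6 h (hg19, chr22:39966758-40085742). It was lower by 8.70-fold, with a log2 fold change of -3.12 ± 0.265 (adjusted P = 7.23e-11). CACNA1D, the L-type channel Cav1.3 of endocrine and sinoatrial cells, had 0.996 and 3.89 at 24 h and 29.1 and 25.9 at 6 h, with a log2 fold change of -3.41 ± 0.523 (adjusted P = 2.57e-06). CACNA1D was close to the floor in both 24 h libraries and entered the test through its 6 h counts. Its log2 fold change was -2.77 without 24 h replicate 1 and -4.61 without 24 h replicate 2. CACNA1D overlaps CHDH, which changed the other way, from a normalized mean of 33.9 at 6 h to 91.0 at 24 h.

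CACNA1H, another T-type channel (Cav3.2), had 38.9 and 50.6 at 24 h and 30.2 and 30.7 at 6 h and did not pass (0.55, adjusted P = 0.0645). CACNA1A, the P/Q-type channel of nerve terminals, was too low to test, with 1 and 3 raw counts at 24 h and 10 and 9 at 6 h. It was called lower when no filter on low counts was used. CACNA1C, the L-type channel of heart and smooth muscle, had 1 and 2 raw counts at 24 h and 0 and 1 at 6 h.

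The alpha2delta subunits promote trafficking of calcium channels to the surface. CACNA2D4 was the most counted of them and was lower at 24 h, with normalized counts of 857 and 882 against 1488 and 1530 at 6 h. The log2 fold change was -0.80 ± 0.0741 (adjusted P = 4.44e-10). CACNA2D1, the gabapentin-binding subunit, had 277 and 314 at 24 h and 435 and 382 at 6 h, and its log2 fold change of -0.46 (adjusted P = 5.17e-04) was just under the cutoff. CACNA2D1 was called lower when libraries were scaled by size alone. CACNA2D3 had 444 and 436 at 24 h and 469 and 425 at 6 h, with a log2 fold change of -0.02.

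The cytoplasmic beta subunits and the gamma subunits did not pass the cutoffs. CACNB3 was the most counted beta subunit, with 1321 and 1392 at 24 h and 1040 and 1026 at 6 h. Its libraries were separate, with a log2 fold change of 0.39 (adjusted P = 4.27e-05). CACNB4 had a log2 fold change of -0.34 (adjusted P = 0.0374) and CACNB1 of 0.18 (adjusted P = 0.204). CACNG8, a gamma relative that is a partner of AMPA receptors, had 331 and 375 at 24 h and 385 and 444 at 6 h (-0.24, adjusted P = 0.0509).

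**Figure D3:**
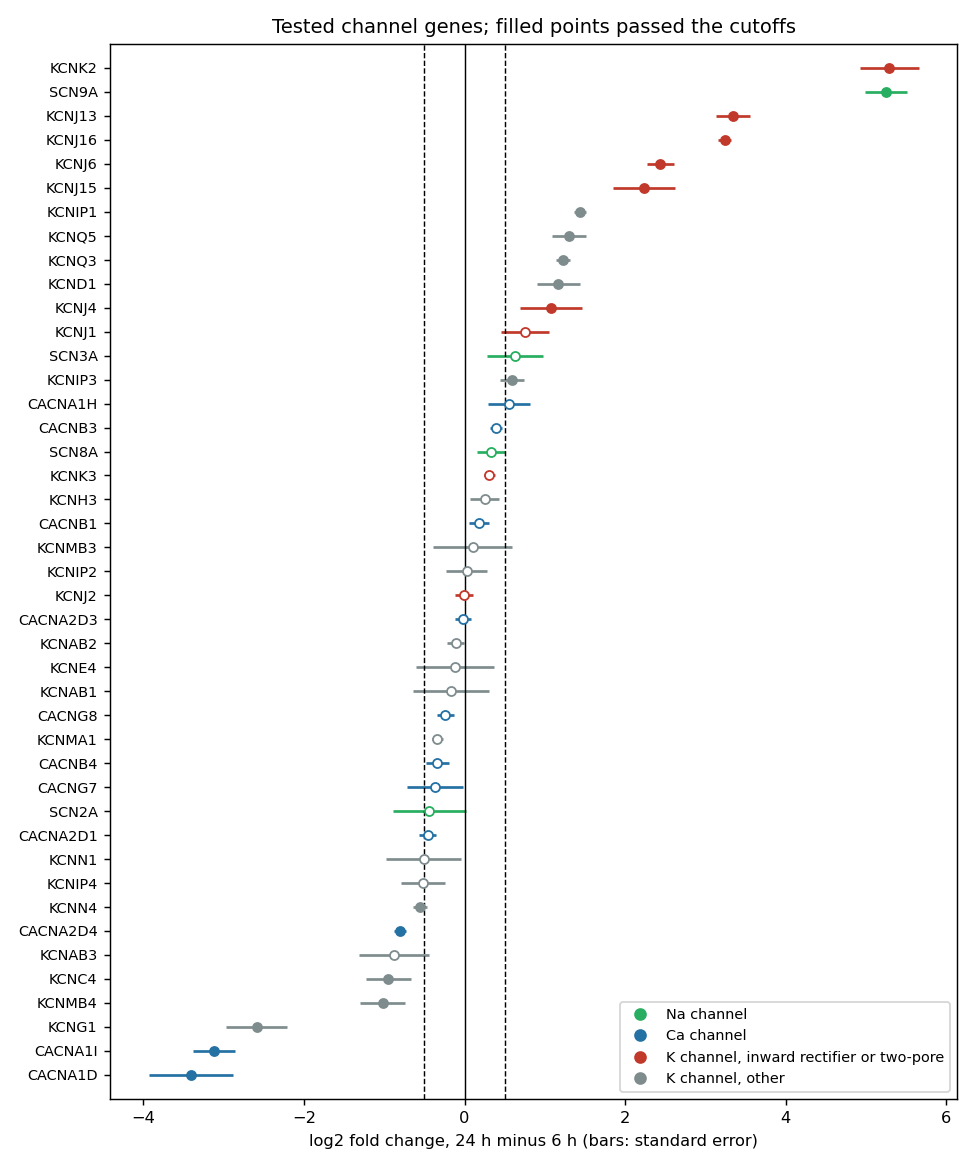
The log2 fold change of 43 tested channel genes, 24 h minus 6 h, with its standard error, coloured by channel class. Filled points passed both cutoffs and dashed lines mark 0.5 and -0.5, and the inward rectifier and tandem-pore genes past the cutoffs lie between 1.08 (KCNJ4) and 5.29 (KCNK2).

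Among the voltage-gated potassium channel pores, KCND1, KCNQ3 and KCNQ5 were higher at 24 h and KCNC4 was lower. KCNQ3, which can join KCNQ5 in the M-channel that dampens excitability, had normalized counts of 1035 and 1033 at 24 h and 426 and 455 at 6 h. It was 2.35-fold higher, with a log2 fold change of 1.23 ± 0.0855 (adjusted P = 1.24e-12). KCNQ5 had 90.7 and 84.7 at 24 h and 34.5 and 36.5 at 6 h, with a log2 fold change of 1.30 ± 0.213 (adjusted P = 6.69e-06). Both M-channel genes had log2 fold changes of a like size.

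KCND1, the A-type channel Kv4.1, had 53.8 and 49.6 at 24 h and 22.7 and 23.0 at 6 h (1.17 ± 0.264, adjusted P = 3.59e-04). KCNC4, the fast-inactivating Kv3.4 channel, had 31.9 and 20.4 at 24 h and 39.9 and 60.4 at 6 h. The spread of KCNC4 within each time point was wide, and its log2 fold change of -0.95 ± 0.283 (adjusted P = 0.00454) lost its call without 24 h replicate 2 (-0.66) or without 6 h replicate 2 (-0.62). KCNH3, an ether-a-go-go relative of the forebrain, had 99.6 and 101 at 24 h and 71.2 and 95.9 at 6 h and did not pass (0.25, adjusted P = 0.217).

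The silent subunits do not form channels alone but modify other pores. KCNG1 (Kv6.1) was the single one tested, with normalized counts of 8.97 and 6.81 at 24 h and 62.6 and 34.5 at 6 h. It was lower at 24 h (log2 fold change -2.59 ± 0.384, adjusted P = 1.59e-06), and it entered the test through its 6 h counts. KCNG2, another silent subunit, was too low to test, with normalized means of 7.87 at 24 h and 3.48 at 6 h.

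Of 13 auxiliary subunits and regulators of voltage-gated potassium channels, each had a count and 8 were tested. KCNIP1, a calcium-binding KChIP protein that brings Kv4 channels such as KCND1 to the surface, had normalized counts of 1796 and 1771 at 24 h and 664 and 653 at 6 h. The libraries were tight within each time point, and the log2 fold change was 1.44 ± 0.0752 (adjusted P = 2.85e-15). KCNMB1, which overlaps KCNIP1, had 3 counts in all 4 libraries together. KCNIP3, the related protein DREAM or calsenilin, had 170 and 182 at 24 h and 108 and 126 at 6 h (0.59 ± 0.145, adjusted P = 9.01e-04), and its call was lost without 6 h replicate 1 (0.49).

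The partners of KCNIP1 were counted far less: besides KCND1, KCND2 had 1 count in all, and KCND3 had 3 and 3 counts at 24 h and 3 and 1 at 6 h. KCNIP2 had a log2 fold change of 0.03 and KCNIP4 of -0.52 (adjusted P = 0.0968). The cytoplasmic beta subunit KCNAB2 had 324 and 356 at 24 h and 370 and 363 at 6 h, with a log2 fold change of -0.11, and KCNAB1, KCNAB3 and KCNE4 did not pass the cutoffs either.

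The calcium- and sodium-activated potassium channels and their subunits held 12 genes, of which 11 had a count and 5 were tested. KCNMA1, the large-conductance BK channel, had normalized counts of 3655 and 3816 at 24 h and 4730 and 4746 at 6 h. It was 1.27-fold lower with an adjusted P of 1.26e-04, but its log2 fold change of -0.34 ± 0.0703 was under the cutoff. KCNMB4, a BK beta subunit known from the brain, was lower, with 17.9 and 24.3 at 24 h and 44.3 and 42.2 at 6 h (-1.02 ± 0.283, adjusted P = 0.00258). The call of KCNMB4 was lost without 24 h replicate 1 (-0.82) or 6 h replicate 1 (-0.99).

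KCNN4, the intermediate-conductance channel of epithelia, lymphocytes and red cells, was lower at 24 h, with normalized counts of 585 and 625 against 831 and 935 at 6 h. The log2 fold change was -0.55 ± 0.0870 (adjusted P = 4.34e-06), close to the cutoff, and was -0.49 without 24 h replicate 1 and -0.46 without 6 h replicate 2. KCNT2, a sodium-activated channel, had 0 and 0 raw counts at 24 h and 3 and 3 at 6 h, too few to test.

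Levels were compared between genes as normalized counts per kb of transcript, with the canonical transcript of each gene in GENCODE. Among the genes reported here, KCNMA1 was highest at 6 h with 757 per kb, followed by KCNN4 at 452, CACNB3 at 352, KCNIP1 at 324, CACNA2D4 at 286, KCNK3 at 216 and KCNJ16 at 186 per kb. At 24 h KCNJ16 was highest at 1759 per kb, followed by KCNIP1 at 879, KCNMA1 at 597, CACNB3 at 463 and KCNN4 at 309. The libraries of each gene named here were separate from those of the next in both orders.

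On the scale of normalized counts, KCNJ16 made up 31.8% and 29.9% of the counts of all 135 channel genes at 24 h and 5.03% and 4.51% at 6 h. KCNMA1 made up 16.1% and 16.8% at 24 h and 30.5% and 30.3% at 6 h. The channel genes together took 0.0860% and 0.0849% of all raw counts at 24 h and 0.0600% and 0.0610% at 6 h. The leading channel transcript was thus KCNMA1 at 6 h and KCNJ16 at 24 h on both scales.

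**Figure D4:**
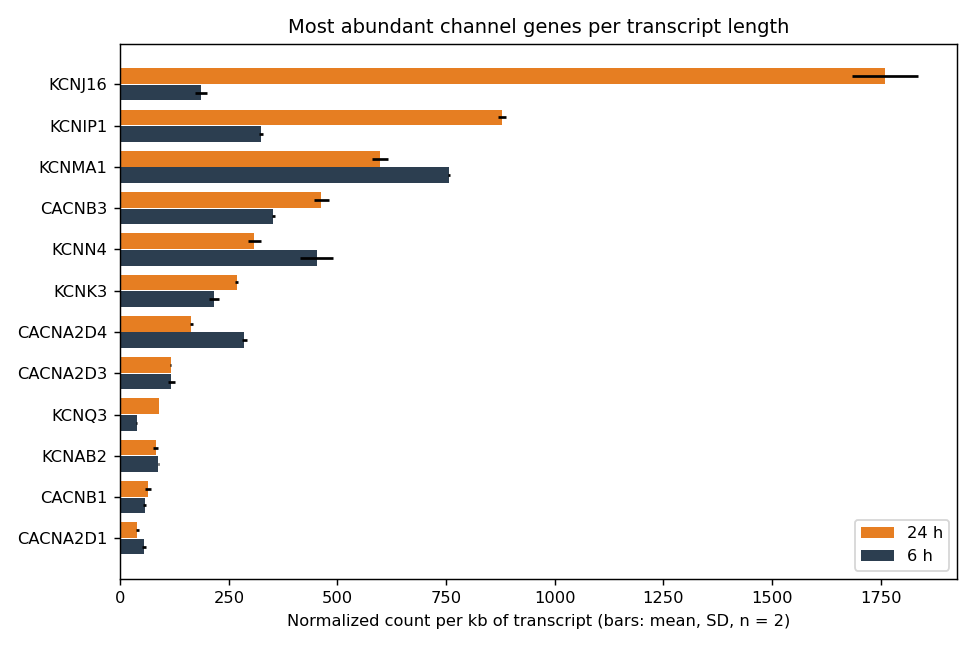
Normalized counts per kb of canonical transcript for the most abundant channel genes, as the mean and SD of 2 libraries at each time. KCNJ16 is at 186 per kb at 6 h and highest at 24 h with 1759 per kb, and KCNMA1 is highest at 6 h with 757 per kb.

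Several channel genes lie close together, and 25 pairs were within 300 kb of each other in hg19. Both genes were tested in 4 of these pairs, and both passed the cutoffs in 1, KCNJ6 and KCNJ15 on chromosome 21, which lie 240.4 kb apart and were both higher at 24 h. In the other 3 pairs, the neighbours KCNJ16 and KCNJ2, SCN3A and SCN2A, and CACNG7 and CACNG8 (19.1 kb apart), at most 1 gene was called.

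Lists of other ion transport genes were set beside the channel genes. Of 65 other ion channel genes 45 were tested, with 6 higher and 7 lower, beside 17.4% and 17.7% of all genes, and a median log2 fold change of -0.05. They included the lysosomal channels TPCN1 (8832 and 10268 normalized counts at 24 h, 5054 and 5471 at 6 h, log2 fold change 0.86) and CLCN7 (0.75), which were higher. The cold-activated channel TRPM8 (-2.35) and the osmosensitive TRPV4 (-0.84) were lower.

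Of 35 ion pumps and exchangers 23 were tested, with 4 higher and 5 lower, near the same shares of all genes, and a median of -0.18. The bicarbonate cotransporter SLC4A4 (1.02) and the potassium-chloride cotransporter SLC12A4 (0.83) were higher, and the calcium pump ATP2B1 (-0.90) was lower. Of 35 channel regulators and scaffolds 23 were tested, with 4 higher and 6 lower, beside 17.4% and 17.7% of all genes, and a median of -0.29. The ubiquitin ligase NEDD4L (0.53) and STAC (0.53) were higher, and STAC3, a chaperone of the muscle calcium channel (-1.45), and the kinase SGK1 (-0.93) were lower.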

How the data were processed

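Total RNA was sequenced from TPC1 cells at 6 h and 24 h, with 2 libraries per time point. The authors aligned reads to hg19 and deposited raw counts per gene. The submitters' processing notes name STAR 2.3 and DESeq2; the counting program, its strand setting and the annotation are not given in the sources used here. The authors also deposited a normalized signal, the count divided by a DESeq2 size factor, which was not tested. The labels give 50 bp single-end reads, whereas the methods describe paired-end reads. Columns of the authors' own DESeq2 comparison (fold changes, scores and p-values) were not used.

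Differences in counts were tested by edgeR 4.0.16 (R 4.3.3) (filterByExpr, TMM, quasi-likelihood test, time as factor) on all 12876 genes that passed the filter, with Benjamini-Hochberg adjustment over them. Each raw count was divided by its library's TMM-adjusted size, expressed against the 4-library mean, to give normalized counts. Standard errors were derived from the F statistic. Fits on simulated data (12876 genes, 24 h against 6 h) recovered 95% of 2-fold and 78% of 1.5-fold changes, and called 18 unchanged genes. DESeq2 recovered 87% and 68%. The simulation gave all genes the same dispersion and changed genes drawn at random from all those tested. These rates may therefore not hold for the channel genes, of which 25 were tested with a normalized mean under 100. Alternatives were DESeq2 1.42.0, other scalings, filters and cutoffs, a replicate block and leaving out each library. Replicates differed beyond sampling noise (chi-square per degree of freedom 7.91 at 24 h and 10.4 at 6 h).

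Transcript lengths were taken from GENCODE by Ensembl identifier for all 135 genes. Promoters were matched by symbol for 96 of the 135 genes, and for 15 of the 20 called. Positions of genes follow hg19 and those of promoters GRCh38.p14. Named were every gene past the cutoffs, the most counted gene of each family, genes at or under 3 counts in all libraries of one time point and above 10 in both of the other, and, of the other lists, the 2 largest rises and falls with a mean normalized count of at least 100. Any further gene was picked with its values in view. A few genes enter the counts but are not reported here by name. The genes and lists were chosen with earlier results of these data known. Figures were made in Python 3.11.15 (matplotlib 3.10.9).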

Additional observations from a re-analysis of the deposited data

How the results depend on the processing

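The number of channel genes higher at 24 h was 13 and stayed between 10 and 16 under the alternatives run, and the number lower was 7. The latter became 11 with an adjusted P under 0.05 and no fold change cutoff, and 4 with an absolute log2 fold change over 1. It was 8 with library size alone, 8 with no filter on low counts and 5 with at least 10 counts in every library. The median log2 fold change of 0.03 became -0.01 with library size alone, -0.03 with no filter on low counts (102 genes tested) and 0.22 with at least 10 counts in every library (34 genes tested). With library size alone the median of all genes moved to -0.040. Without 1 library in turn, where the lone library was assumed to vary like the other time point, the counts were 11 to 12 higher and 5 to 7 lower and the median 0.06 to 0.15. DESeq2 gave 12 and 5, without KCNJ4, KCNC4 and KCNMB4, whose unadjusted P lay above 0.01. KCNJ4 was also lost with library size alone and with no filter on low counts.

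The replicate block gave 13 higher and 7 lower and a median of 0.04. The numbers are not stated to pair libraries, and the deviations of same-numbered libraries correlated at 0.0844. Over 25 named channel genes and 295 values under alternatives, 271 kept their direction and side of the cutoffs, 20 fell below the cutoffs, 4 passed them and 0 turned direction. Alternatives that change only the cutoffs reuse the main fit, so they could not turn a direction. KCNK2, SCN9A, KCNJ15, KCNG1 and CACNA1D were not tested with at least 10 counts in every library and add no value for it. Below about 10 counts per library the depth limits what could be detected.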
